A study of Mus musculus with 15 samples.

Results

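The genes described here are 29 genes of the lysosome, taken by symbol from the 38924 genes listed in every library. They comprise 7 membrane proteins and channels, 8 glycosidases of glycolipids, glycoproteins and glycogen, 7 enzymes of glycosaminoglycan breakdown, 4 enzymes and activators of sphingolipid breakdown, and 3 genes of protein and lipoprotein breakdown including progranulin. All 29 passed the filter on low counts, which 14967 genes passed in all. The libraries are RNA-seq of CD11b+ myeloid cells sorted from the brains of wild type male C57BL/6J (B6) mice at 12 months of age. CD11b marks myeloid cells, and the cells were parted by FACS by their surface level of the leukocyte protein CD45 into CD45hi and CD45lo cells, after T cells bearing CD3e had been gated away. Mice were kept on a control chow diet (CD) or were fed a western diet (WD) from 2 months of age. There were 4 CD CD45hi, 4 CD CD45lo, 3 WD CD45hi and 4 WD CD45lo libraries, compared by CD45 level on each diet and by diet in each cell type. CD45lo cells are commonly read as resident microglia and CD45hi cells as a mixture with blood-derived cells, so that a CD45hi library is not a single cell type. In such bulk samples, fewer cells of a type and less RNA per cell cannot be told apart.

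Lysosomes are acidic vesicles in which macromolecules taken up by a cell, or its own worn parts, are taken apart. Soluble hydrolases each cut a particular bond of glycans, glycolipids, proteins or lipids, and inherited loss of many of them causes a lysosomal storage disease that often affects the brain. Heavily glycosylated membrane proteins such as LAMP1 and LAMP2 line the vesicle, and channels such as the calcium channel TRPML1 connect it to the cytosol. Microglia and macrophages are professional phagocytes and are rich in these genes. The transcription factors TFEB, TFE3 and MITF are known to bind a motif called CLEAR, whose core is CACGTG, near the start of many lysosomal genes.

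Because that core is the best known shared sequence of this gene group, the promoters of the members were searched for it and the stretches are shown for *Lamp1*, which held the most copies, and for the members that held a longer form of it. The RefSeq promoter set (build GRCm38.p6, 250 bases before to 50 after a gene's start) listed 27 of the 29 members. Those not matched were *Galns* and *Asah1*. CACGTG, which reads the same on both strands, was found in 10 of the 27 members (37.0%), against 7.15% of all 32851 promoters and 8.09% of all 27025 genes. The members holding it were *Lamp1*, *Mcoln1*, *Cln3*, *Tmem55b*, *Glb1*, *Gla*, *Gaa*, *Naglu*, *Sgsh* and *Arsa*. In each of those 10 a copy was also preceded by T or followed by A (TCACGTG or its reverse complement CACGTGA), as in 4.29% of all genes. The longer palindrome TCACGTGA, which contains both, was present in *Mcoln1*, *Cln3*, *Tmem55b* and *Gla* (14.8% of the 27, against 1.12% of all genes). The stretches are written 5′ to 3′ on the strand of the gene, with each CACGTG in capitals. They lie at chr8:13159083-13159168 (*Lamp1*, plus strand), chr8:3500431-3500496 (*Mcoln1*, plus strand), chr7:126583335-126583402 (*Cln3*, minus strand), chrX:134601177-134601249 (*Gla*, minus strand) and chr14:50930881-50930920 (*Tmem55b*, minus strand).
Lamp1: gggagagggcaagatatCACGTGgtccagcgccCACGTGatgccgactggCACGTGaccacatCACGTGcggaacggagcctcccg
Mcoln1: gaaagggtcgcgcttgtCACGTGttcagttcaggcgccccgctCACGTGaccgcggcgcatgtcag
Cln3: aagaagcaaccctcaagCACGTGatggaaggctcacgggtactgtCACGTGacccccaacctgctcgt
Gla: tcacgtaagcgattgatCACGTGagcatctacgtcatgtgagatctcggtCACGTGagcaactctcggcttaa
Tmem55b: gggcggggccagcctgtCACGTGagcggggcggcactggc
*Lamp1* held 4 copies within 86 bases, and *Mcoln1*, *Cln3*, *Gla* and *Tmem55b* held 2 copies each, of which the copy in the longer palindrome is shown for *Tmem55b*. For *Cln3*, RefSeq listed 2 promoters, and the stretch belongs to the one that held the core. A match describes the letters of a promoter and was not linked to binding in these cells.

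Libraries held between 11951412 and 17912272 expected counts. A floor of 3 counts amounted to 0.156 to 0.282 cpm, where cpm is the count relative to the TMM-scaled total of the library. *Itgam* (CD11b), *Ptprc* (CD45), *Csf1r* and *Aif1* were measured in every library, with a summed level of 5424 to 7451 cpm. The 5 microglial markers (*P2ry12*, *P2ry13*, *Tmem119*, *Sall1*, *Gpr34*) summed to 2631 to 3575 cpm in CD45hi and 6780 to 8738 cpm in CD45lo libraries. The 6 monocyte markers summed to 373 to 851 cpm in CD45hi and 41.4 to 137 cpm in CD45lo libraries, and the 6 neutrophil markers to 631 to 2445 cpm and 38.7 to 228 cpm. The 5 markers of border macrophages summed to 616 to 2337 cpm in CD45hi and 53.6 to 203 cpm in CD45lo libraries. The 6 lymphocyte markers summed to 10.1 to 87.0 cpm in CD45hi and to at most 0.571 cpm in CD45lo libraries, and the 8 markers of other brain cells to 28.5 to 130 cpm over all libraries. None of the 40 markers was at 0 in every library. Every lysosomal comparison of CD45hi with CD45lo cells below is thus also a comparison of libraries that differ in these markers, whose part in the results was not tested. On the second principal component of all genes (13.2% of the variance), WD CD45hi library 1 lay at 134.7 and CD CD45hi library 4 at -93.0, while the other 13 lay between -21.5 and 4.5. Where leaving out these 2 libraries changed a call between cell types, the value without them is given beside the result.

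To place the 29 genes by abundance, they were ordered by their median TPM (a transcript abundance corrected for gene length and scaled to a fixed total per library) over the 15 libraries. The order ran from 3694 TPM for *Laptm5*, a lysosomal membrane protein of blood-lineage cells, to 3.35 TPM for *Galns*, a sulfatase of keratan sulfate breakdown. *Grn* (progranulin, 1048 TPM) and *Psap* (prosaposin, the precursor of the sphingolipid activators, 884 TPM) followed *Laptm5*, and then *Lamp1* (588 TPM) and *Lamp2* (563 TPM), whose levels overlapped. *Asah1* (acid ceramidase, 435 TPM), *Man2b1* (lysosomal alpha-mannosidase, 395 TPM), *Hexa* (the alpha subunit of beta-hexosaminidase, 353 TPM), *Cd63* (a tetraspanin of late endosomes, 352 TPM) and *Ppt1* (a thioesterase that removes palmitate from proteins, 286 TPM) formed the next tier. *Arsa*, *Sgsh*, *Gla* and *Galns* were the least abundant, at 7.46, 7.45, 4.43 and 3.35 TPM. *Laptm5* alone made up 37.1% of the summed TPM of the 29 genes in CD CD45hi, 38.8% in CD CD45lo, 30.8% in WD CD45hi and 40.9% in WD CD45lo libraries. The 5 most abundant genes together made up 65.1% to 70.3%.

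**Figure D1:**
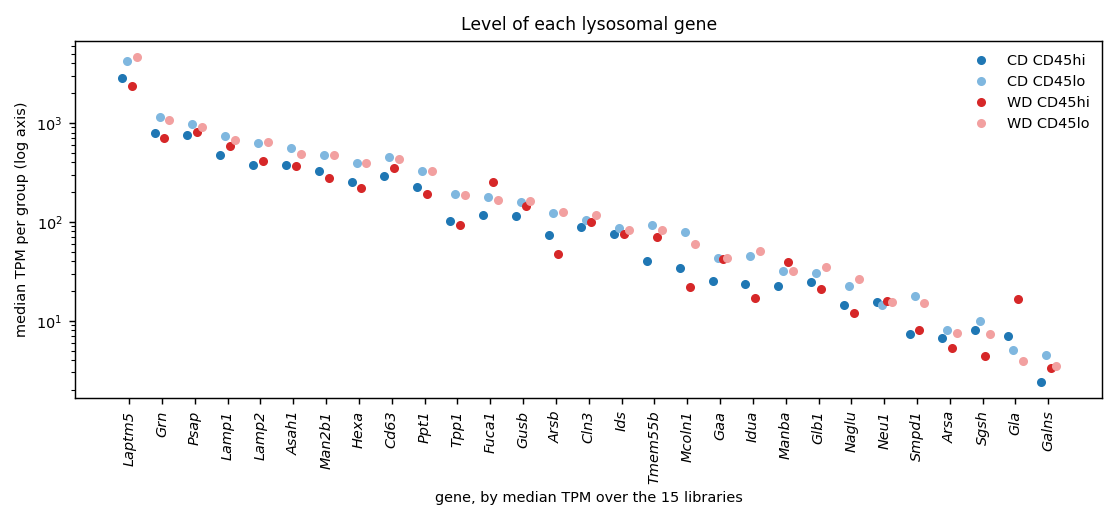
Median TPM of each of the 29 lysosomal genes in the 4 groups (log axis), ordered by the median over the 15 libraries. The levels span from 3694 TPM for Laptm5 to 3.35 TPM for Galns, and Gla in WD CD45hi cells (16.5 TPM) stands above its level in WD CD45lo cells (3.96 TPM).

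The question of whether the lysosomal genes as a group differ between the cell types was described by their mean log2 cpm per library, with TMM normalization. It was 6.746 ± 0.135 (SD, n = 4) in CD CD45hi and 6.896 ± 0.020 (n = 4) in CD CD45lo libraries. In WD-fed mice it was 6.895 ± 0.194 (n = 3) in CD45hi and 6.834 ± 0.112 (n = 4) in CD45lo libraries. The CD45hi and CD45lo ranges overlapped on WD (6.682 to 7.062 against 6.741 to 6.997). On CD the CD45hi libraries lay between 6.609 and 6.871, all below the CD45lo libraries at 6.873 to 6.920, by a margin smaller than the spread. On the scale of summed TPM, which is not adjusted for library composition, the cell types were apart. The 29 genes summed to 7573 ± 673 TPM in CD CD45hi and 11206 ± 130 TPM in CD CD45lo libraries, and to 7367 ± 193 and 11071 ± 535 TPM on WD. The bulk of all genes moved the same way on this scale. The median difference of log2(TPM + 1) between CD45hi and CD45lo cells was -0.52 for the members and -0.43 for all 14967 genes on CD, and -0.50 and -0.52 on WD. On CD the difference was below 0 for 28 of 29 members and 11032 of 14967 genes. On each diet 11 members (37.9%) were lower in CD45hi cells without overlap, against 17.1% of all genes on CD and 24.9% on WD. In the other direction 0 members were higher without overlap on CD and 1 (*Gla*) on WD, against 4.76% and 5.1% of all genes. Fold changes below are from TMM-normalized counts, on which the median of all genes was 0.04 on CD and 0.00 on WD.

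**Figure D2:**
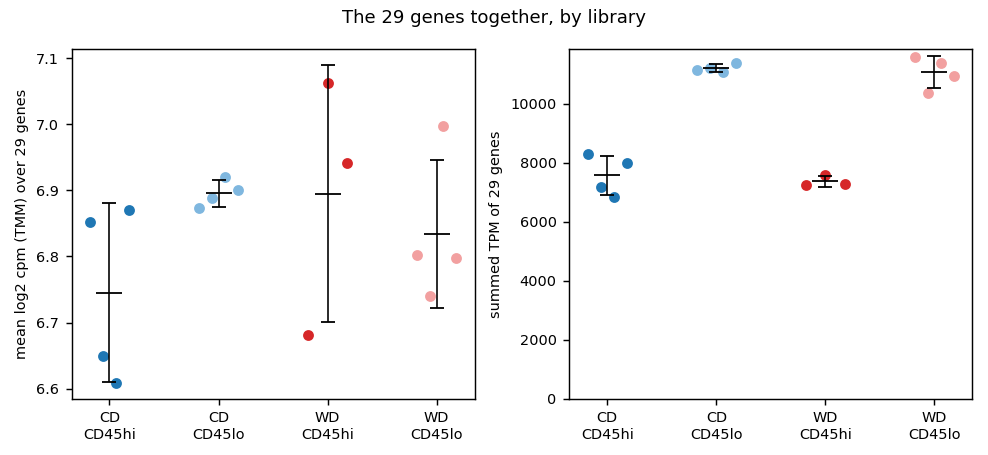
Mean log2 cpm (left; the axis does not start at 0) and summed TPM (right) of the 29 lysosomal genes in each library, with the mean and SD of each group. On the TMM-normalized scale the CD45hi and CD45lo libraries of WD-fed mice overlap, whereas summed TPM lies at 6843 to 8285 in CD45hi and 10370 to 11584 in CD45lo libraries.

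To ask which of the genes differ between cell types on CD, all genes were tested with edgeR. In CD-fed mice 0 of the 29 members differed by more than 1.5-fold (glmTreat, FDR under 0.05) in either direction, where 3.39% of all genes were higher and 0.588% lower in CD45hi cells. Of any change (glmQLFTest) 0 members were called as well, where 5.95% of all genes were higher and 2.08% lower. At an unadjusted p under 0.05 there was 1 higher member (*Gla*) and 2 lower ones (*Tmem55b* and *Tpp1*), where 11.8% of all genes were higher and 8.30% lower. DESeq2 called 1 (*Tmem55b*, lower), where it called 12.5% of all genes. The log2 fold changes were above 0 for 13 members and below 0 for 16, with a median of -0.025. The precision was sufficient to bound many of them. The 95% confidence interval (CI) lay within 1.5-fold in both directions for 11 members (37.9%, against 3.75% of all genes) and within 2-fold for 19 (65.5%, against 17.9%). Those 19 include each of the 15 members with a median TPM of 100 or more, and 4 of the other 14.

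In WD-fed mice 1 member, *Gla*, was higher in CD45hi cells by more than 1.5-fold, where 4.01% of all genes were higher and 1.17% lower. By the test of any change 3 members were higher, *Gla*, *Cln3* and *Fuca1*, and 0 lower, where 6.22% of all genes were higher and 2.90% lower. The 3 members are to be read against that background. At an unadjusted p under 0.05 there were 8 higher and 4 lower members, where 13.3% of all genes were higher and 11.2% lower. DESeq2 called 6 higher (*Cd63*, *Cln3*, *Fuca1*, *Gla*, *Manba*, *Psap*) and 1 lower (*Mcoln1*), where it called 15.8% of all genes. The log2 fold changes were above 0 for 15 members and below 0 for 14, with a median of 0.06. The 95% CI lay within 1.5-fold for 7 members and within 2-fold for 14 (48.3%, against 14.2% of all genes). Counted by libraries in cpm, 0 members were higher and 3 lower (*Tmem55b*, *Idua*, *Tpp1*) without overlap on CD, where 8.26% and 8.22% of all genes were. On WD 6 were higher (*Gla*, *Cln3*, *Fuca1*, *Cd63*, *Psap*, *Lamp1*) and 2 lower (*Mcoln1*, *Tpp1*), where 10% and 13.4% of all genes were.

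**Figure D3:**
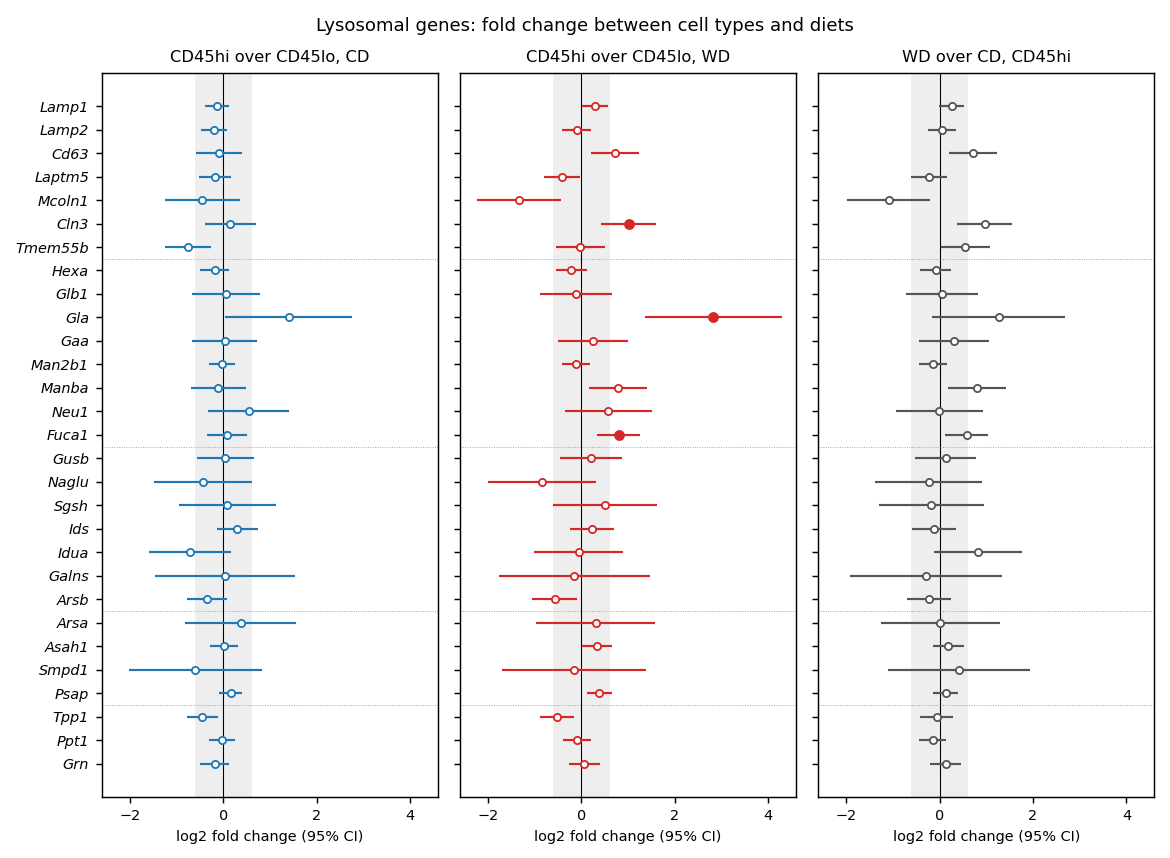
Log2 fold change with its 95% CI for each of the 29 genes, between cell types on CD, between cell types on WD, and between diets in CD45hi cells, with dotted lines between the 5 roles and a grey band at 1.5-fold in both directions. Filled points passed the test of any change (FDR under 0.05), which holds for Gla, Cln3 and Fuca1 on WD in the middle panel and for no gene in the other panels.

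The membrane proteins are described first. *Lamp1*, the main glycoprotein of the lysosomal membrane, was at 750, 617, 683 and 911 cpm in the 4 CD CD45hi libraries and at 843, 776, 829 and 790 cpm in the CD CD45lo libraries. It was at 782, 965 and 907 cpm in the WD CD45hi libraries and at 731, 732, 739 and 693 cpm in the WD CD45lo libraries. In cpm the groups overlapped on CD, and on WD each CD45hi library was above each CD45lo library. The log2 fold change was -0.13 ± 0.12 (SE) on CD and 0.29 ± 0.13 on WD (FDR = 0.179, glmQLFTest), so that neither passed. Without the 2 libraries that stood apart, *Lamp1* passed on WD in TMM-normalized counts (log2 fold change 0.37, FDR = 0.0412). In TPM its order on WD was reversed, at 489 to 583 in CD45hi and 588 to 692 in CD45lo libraries. The direction for *Lamp1* on WD thus depended on the scale. *Lamp2*, which also serves chaperone-mediated autophagy, overlapped on both diets (log2 fold change -0.20 ± 0.13 on CD and -0.11 ± 0.15 on WD), with CIs inside 1.5-fold. *Laptm5* was at 1855 ± 456 cpm in CD CD45hi and 2102 ± 267 cpm in CD CD45lo libraries, and at 1585 ± 253 and 2119 ± 323 cpm on WD. Its log2 fold change of -0.42 ± 0.18 on WD did not pass (FDR = 0.159).

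*Cln3* encodes a membrane protein lost in juvenile neuronal ceroid lipofuscinosis, a storage disease of the brain. It was at 64.5, 44.2, 52.6 and 72.7 cpm in CD CD45hi and at 61.8, 57.4, 36.8 and 54.6 cpm in CD CD45lo libraries, which overlapped (log2 fold change 0.15 ± 0.26). In WD-fed mice it was at 165, 85.3 and 92.5 cpm in CD45hi and at 56.6, 64.9, 45.8 and 59.6 cpm in CD45lo libraries. In cpm the WD CD45hi libraries lay above all others, by 2.01-fold over CD45lo cells (95% CI 1.34 to 3.02, FDR = 0.0292). Library 1 was the highest, and without it the log2 fold change was 0.65 and the FDR 0.148, and without both libraries that stood apart the FDR was 0.102. The call was also lost without WD CD45lo library 1, 3 or 4 (FDR = 0.0735, 0.0921 and 0.0609). In TPM the WD groups overlapped, at 93.7 to 163 in CD45hi and 89.6 to 133 in CD45lo libraries. Exons of *Cln3* share 442 bases with *Apobr* on the opposite strand, and as neither the library kit nor the default RSEM setting keeps strand, reads of *Cln3* and *Apobr* cannot be told apart there. Its expected counts were not whole in any of the 15 libraries, so that part of its reads was shared out between genes.

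*Mcoln1*, which encodes the lysosomal calcium channel TRPML1, went the other way in WD-fed mice. It was at 6.30, 17 and 12 cpm in WD CD45hi and at 24.0, 29.2, 36.8 and 29.6 cpm in WD CD45lo libraries. The groups did not overlap, and the log2 fold change of -1.34 ± 0.42 did not pass (FDR = 0.0576). Without the 2 libraries that stood apart it was -1.04 (FDR = 0.103). On CD the libraries overlapped, at 11.5 to 33.3 cpm in CD45hi and 28.2 to 37.1 cpm in CD45lo cells.

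*Tmem55b*, a lysosomal phosphatase that also positions lysosomes in the cell, was at 43.2, 60.6, 56.3 and 94.2 cpm in CD CD45hi and at 115, 94.5, 111 and 109 cpm in CD CD45lo libraries. Every CD45hi library was below every CD45lo library, and the highest of them, library 4, was 94.2 against 94.5 cpm. The log2 fold change was -0.75 ± 0.23, or 1.69-fold lower, and did not pass (FDR = 0.0574). Without library 4 of CD CD45hi it was -1.01 (FDR = 0.00682), and without both libraries that stood apart -1.0 (FDR = 0.00208). In WD-fed mice the libraries overlapped, at 75.8 to 122 cpm in CD45hi and 84.0 to 105 cpm in CD45lo cells. *Tmem55b* shares 877 exonic bases with *Apex1* on the opposite strand, and its expected counts were likewise not whole in all 15 libraries. *Cd63* was at 155 ± 23.1 cpm in CD CD45hi and 165 ± 30.9 cpm in CD CD45lo libraries. On WD it was at 179, 204 and 383 cpm in CD45hi and at 173, 158, 173 and 117 cpm in CD45lo libraries, without overlap but with library 3 far above the others (log2 fold change 0.72 ± 0.25, FDR = 0.0799). *Cd63* passed without the 2 libraries that stood apart (log2 fold change 0.92, FDR = 0.0266) and without WD CD45hi library 1 alone. In TPM its WD groups overlapped, at 318 to 700 in CD45hi and 284 to 468 in CD45lo libraries. The expected counts of *Cd63* and *Lamp2* were also not whole in any of the 15 libraries, although neither shares exonic bases with another annotated gene.

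**Figure D4:**
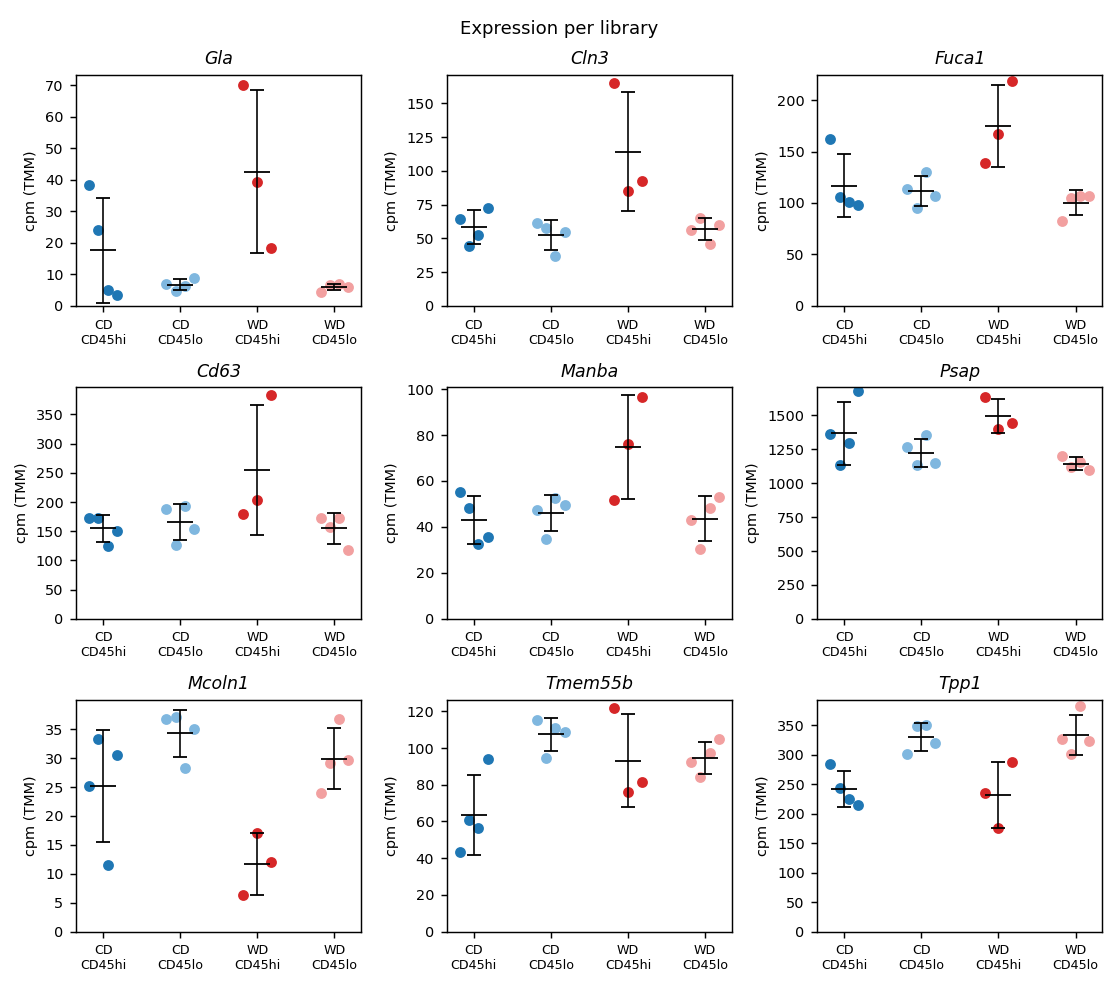
TMM-normalized cpm of 9 lysosomal genes in each library, with the mean and SD of each group; the genes are those whose unadjusted p was lowest in a comparison of the cell types. Gla, Cln3 and Fuca1 lie higher in WD CD45hi than in WD CD45lo libraries and Mcoln1 lower, while Tpp1 is lower in CD45hi libraries on both diets and the values of CD45hi libraries scatter more widely.

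Among the glycosidases, *Gla* had the largest difference of the 29 genes. It encodes alpha-galactosidase A, which removes galactose from globotriaosylceramide and is lost in Fabry disease. *Gla* was at 69.9, 39.3 and 18.4 cpm in WD CD45hi and at 4.52, 6.75, 6.81 and 5.91 cpm in WD CD45lo libraries, without overlap. It was thus 7.08-fold higher in CD45hi cells (95% CI 2.55 to 19.6, log2 fold change 2.82 ± 0.70, FDR = 0.0148 for any change and 0.0330 over 1.5-fold). On CD the CD45hi libraries split into 38.3 and 24.0 cpm (libraries 1 and 2) and 4.93 and 3.48 cpm (libraries 3 and 4), on both sides of the CD45lo libraries at 7.0, 4.62, 6.33 and 8.85 cpm. The log2 fold change of 1.40 ± 0.64 on CD did not pass (FDR = 0.231). The difference between diets in this fold change was 1.42 ± 0.93 on the log2 scale and did not pass either (FDR = 0.652), so that a larger difference on WD was not shown. Summed border macrophage markers were 1815, 1683, 1746 and 1851 cpm in CD CD45hi libraries 1 to 4 and 616, 2337 and 1623 cpm in WD CD45hi libraries 1 to 3. Summed neutrophil markers were 2110, 2014, 931 and 2445 cpm and 866, 631 and 1132 cpm in the same libraries, and the part of these cells in the level of *Gla* was not tested. *Gla* lies on chromosome X, on the minus strand, and shares no exonic base with another annotated gene.

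The call for *Gla* over 1.5-fold on WD rested on few libraries. It was lost without WD CD45hi library 1 (log2 fold change 2.27, FDR = 0.124) and without any 1 of the 4 WD CD45lo libraries. Without 1 of these 4 the log2 fold change was 2.71 to 2.89. Calls over 1.5-fold among all genes were then also fewer, at 3.45% to 3.92% against 5.18% with all libraries. The log2 fold change stayed at 2.27 or above in each of the alternatives tried. Without both libraries that stood apart the FDR was 0.0514 over 1.5-fold and 0.0216 for any change.

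*Fuca1*, alpha-L-fucosidase, was at 139, 167 and 218 cpm in WD CD45hi and at 82.7, 105, 107 and 107 cpm in WD CD45lo libraries, without overlap. It was 1.74-fold higher in CD45hi cells (95% CI 1.27 to 2.40, FDR = 0.0262), and without the 2 libraries that stood apart the FDR was 0.0109. The call was lost without WD CD45hi library 3 (log2 fold change 0.61, FDR = 0.101) or without WD CD45lo library 1, 2 or 3. In TPM the WD groups overlapped, at 91.4 to 369 in CD45hi and 143 to 196 in CD45lo libraries. On CD the CD45hi libraries at 162, 106, 101 and 98.2 cpm overlapped the CD45lo libraries at 114, 94.9, 130 and 107 cpm. *Manba*, beta-mannosidase, was at 51.6, 76.3 and 96.6 cpm in WD CD45hi and at 42.9, 30.3, 48.1 and 52.9 cpm in WD CD45lo libraries. It overlapped by library 1, and its log2 fold change of 0.78 ± 0.30 did not pass (FDR = 0.113). Library 1 is among those that stood apart, and without both of these *Manba* passed (log2 fold change 0.99, FDR = 0.0326), as it did without library 1 alone.

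The abundant glycosidases differed little. *Hexa* was at 321 ± 41.7 cpm in CD CD45hi and 364 ± 34.8 cpm in CD CD45lo libraries, and at 304 ± 53.0 and 353 ± 39.6 cpm on WD. *Man2b1* was at 1019 ± 204 and 1036 ± 42.1 cpm on CD and at 920 ± 85.7 and 1001 ± 88.2 cpm on WD. Their CIs lay inside 1.5-fold on both diets. *Glb1* (beta-galactosidase) and *Gaa* (acid alpha-glucosidase, which digests glycogen) overlapped on both diets with log2 fold changes between -0.12 and 0.26. *Neu1*, the lysosomal sialidase, was among the 3 highest members on CD, with a log2 fold change of 0.54 ± 0.41 and FDR = 0.534. Its CD CD45hi libraries were at 31, 14, 24.9 and 62.4 cpm and its CD CD45lo libraries at 24.5, 17.8, 29.3 and 19.2 cpm. Without library 4 of CD CD45hi the log2 fold change of *Neu1* was 0.04.

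Among the 7 enzymes of glycosaminoglycan breakdown, 0 were called on either diet, and their log2 fold changes spread to both sides of 0. *Idua*, the iduronidase lost in Hurler disease, was at 45.7, 17.2, 42.5 and 51.9 cpm in CD CD45hi and at 55.1, 77.5, 57.6 and 68.0 cpm in CD CD45lo libraries. The groups did not overlap, yet the log2 fold change of -0.71 ± 0.42 did not pass (FDR = 0.384). On WD its CD45hi libraries were at 36.8, 142 and 30.8 cpm, both below and above the CD45lo range of 55.2 to 87.3 cpm. *Naglu*, a glucosaminidase of heparan sulfate, was at 3.67, 22.5 and 28.4 cpm in WD CD45hi and at 34.9, 36.5, 30.9 and 28.1 cpm in WD CD45lo libraries (log2 fold change -0.84 ± 0.55, FDR = 0.381). These overlapped by library 3. *Arsb*, the sulfatase of dermatan sulfate, was at 138, 237 and 118 cpm in WD CD45hi and at 236, 210, 262 and 274 cpm in WD CD45lo libraries, overlapping by library 2. Its log2 fold change of -0.58 ± 0.22 did not pass (FDR = 0.121), and without that library it was -0.93 (FDR = 0.00815). *Gusb* (beta-glucuronidase), *Ids* (iduronate sulfatase), *Sgsh* (heparan sulfamidase) and *Galns* overlapped on both diets. Of these *Galns* was the least certain, with a CI from -1.45 to 1.53 on the log2 scale on CD at 2.65 to 12.1 cpm in CD45hi libraries.

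Of the sphingolipid genes, *Psap* was at 1365, 1131, 1295 and 1678 cpm in CD CD45hi and at 1266, 1131, 1353 and 1150 cpm in CD CD45lo libraries. On WD it was at 1639, 1399 and 1445 cpm in CD45hi and at 1203, 1122, 1158 and 1099 cpm in CD45lo libraries. In cpm the WD groups did not overlap, and the log2 fold change of 0.38 ± 0.13 did not pass (FDR = 0.0677). In TPM they overlapped, at 734 to 890 in CD45hi and 805 to 989 in CD45lo libraries. *Asah1* had a log2 fold change of 0.02 ± 0.14 on CD and 0.34 ± 0.15 on WD (FDR = 0.189) with overlapping libraries. The scarcer *Smpd1* (acid sphingomyelinase, lost in Niemann-Pick disease) was at 18.5, 30.1, 5.28 and 2.51 cpm in CD CD45hi and at 20.3, 28.2, 15.6 and 21.5 cpm in CD CD45lo libraries. Its log2 fold change of -0.60 ± 0.67 had a CI from -2.02 to 0.82. *Arsa* (the sulfatase of sulfatide, a myelin lipid) was at 5.11, 12.9, 16.1 and 33.7 cpm in CD CD45hi and at 13.6, 12.9, 17.5 and 8.34 cpm in CD CD45lo libraries, with a log2 fold change of 0.37 ± 0.56 that turned to -0.20 without CD CD45hi library 4. For *Arsa* the CI ran from -0.81 to 1.56, so that a level of *Smpd1* lower by more than 2-fold, or of *Arsa* higher by more than 2-fold, was within these intervals.

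*Tpp1*, a tripeptidyl peptidase lost in late infantile neuronal ceroid lipofuscinosis, was the member lower in every CD45hi library on both diets. It was at 285, 244, 225 and 215 cpm in CD CD45hi and at 301, 349, 350 and 320 cpm in CD CD45lo libraries. On WD it was at 235, 175 and 287 cpm in CD45hi and at 327, 302, 382 and 323 cpm in CD45lo libraries. The log2 fold change of -0.45 ± 0.16 on CD (FDR = 0.10) and -0.52 ± 0.17 on WD (FDR = 0.0677) did not pass on either diet. *Tpp1* was called on CD without WD CD45hi library 2 and on WD without WD CD45hi library 3. *Ppt1* (log2 fold change -0.02 ± 0.13 on CD and -0.10 ± 0.14 on WD) and *Grn* (-0.18 ± 0.15 and 0.06 ± 0.16) overlapped on both diets, with CIs inside 1.5-fold. *Grn* was at 1082 ± 214 cpm in CD CD45hi, 1225 ± 45.2 cpm in CD CD45lo, 1188 ± 285 cpm in WD CD45hi and 1139 ± 71.0 cpm in WD CD45lo libraries.

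To ask whether the diet changed the lysosomal genes, WD was compared with CD within each cell type. These comparisons share their libraries with those above. In CD45hi cells 0 members were called (glmQLFTest), where 0.254% of all genes were called. At an unadjusted p under 0.05 there were 5 higher members (*Cln3*, *Cd63*, *Manba*, *Fuca1*, *Tmem55b*) and 1 lower (*Mcoln1*), where 8.16% of all genes were higher and 9.39% lower. DESeq2 called 1 (*Cln3*, higher, FDR = 0.0172), where it called 6.88% of all genes. The lowest p was that of *Cln3*, at 85.3 to 165 cpm on WD against 44.2 to 72.7 cpm on CD, or 1.95-fold higher (95% CI 1.30 to 2.93, FDR = 0.114). Without WD CD45hi library 1 its log2 fold change was 0.60 (FDR = 0.253). *Cd63* was at 179 to 383 cpm on WD against 124 to 173 cpm on CD (log2 fold change 0.72 ± 0.25, FDR = 0.157). *Manba* was at 51.6 to 96.6 cpm on WD against 32.6 to 55.0 cpm on CD (log2 fold change 0.80 ± 0.30, FDR = 0.180). *Cln3* and *Cd63* were higher in each of the 3 WD libraries than in each of the 4 CD libraries, and 0 members were lower without overlap, where 2.58% of all genes were higher and 3.19% lower. In TPM *Cln3* and *Cd63* overlapped between diets. On that scale 1 member (*Manba*) was higher and 0 lower without overlap, where 2.12% and 3.8% of all genes were. *Mcoln1*, at 6.30 to 17 cpm on WD against 11.5 to 33.3 cpm on CD, overlapped (log2 fold change -1.09 ± 0.42, FDR = 0.196).

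In CD45lo cells 0 members and 0 of all genes (0%) were called, and DESeq2 called 0 members, where it called 0.0267% of all genes. At an unadjusted p under 0.05 there were 0 members, where 0.434% of all genes were higher and 0.388% lower. The fit gave each gene a single dispersion for all 4 groups, which did not follow the smaller spread of CD45lo libraries. Differences between diets in these cells may therefore have been missed by this fit. A fit of the CD45lo libraries alone, with their own dispersion, also called 0 members and 0% of all genes. The member with the lowest p was *Lamp1*, with a log2 fold change of -0.16 ± 0.12, and its WD libraries at 693 to 739 cpm lay below its CD libraries at 776 to 843 cpm. It was the only member whose diets did not overlap in CD45lo cells, where 1.13% of all genes were higher and 1.29% lower. *Sgsh* was at 8.64 to 18.6 cpm on WD and 14.4 to 24.9 cpm on CD (log2 fold change -0.60 ± 0.49), and *Asah1* at 453 to 630 and 499 to 623 cpm (-0.13 ± 0.14), and these libraries overlapped. The 95% CI of the diet effect in CD45lo cells lay within 2-fold for 22 of the 29 members (75.9%, against 29.6% of all genes). By the interaction of diet and CD45 level 0 members were called, where 0.00668% of all genes were. At an unadjusted p under 0.05 there were 6 whose signed log2 fold change was higher on WD than on CD (*Lamp1*, *Cd63*, *Cln3*, *Tmem55b*, *Manba*, *Fuca1*) and 0 for which it was lower, where 4.46% and 5.66% of all genes were. For *Tmem55b* this was a change from -0.75 on CD to -0.02 on WD, hence a smaller difference between cell types. DESeq2 called 0, where it called 1.26% of all genes. A dependence of the cell type difference on diet was therefore not shown for any of the 29 genes.

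The CD45hi libraries varied more among themselves than the CD45lo libraries. The SD of log2 cpm was larger in CD45hi libraries for 26 of 29 members on CD (89.7%, against 86.2% of all genes) and for 27 of 29 on WD (93.1%, against 79.6%). Its median over members was 0.339 in CD45hi and 0.179 in CD45lo libraries on CD, and 0.456 and 0.196 on WD. Because the fit gave each gene a single dispersion for all 4 groups, its p values, SEs and CIs do not reflect this inequality. They can be too wide or too high between CD45lo libraries, and too narrow or too low between CD45hi libraries. The spread went with abundance. The 15 members with a median TPM of 100 or more had a median SD of 0.265 in CD CD45hi libraries, and the other 14 had 0.759, while in CD CD45lo libraries the medians were 0.128 and 0.279. *Gla* (1.67) and *Smpd1* (1.61) had the largest SDs in CD CD45hi libraries, and *Naglu* (1.59) and *Smpd1* (1.58) in WD CD45hi libraries.

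**Figure D5:**
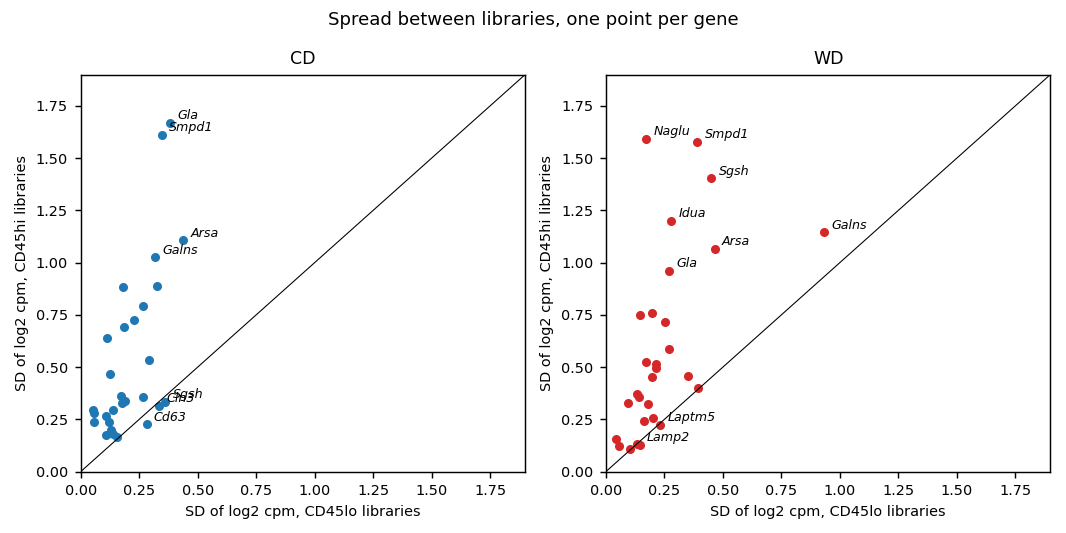
SD of log2 cpm of each of the 29 genes between CD45hi libraries (vertical) against that between CD45lo libraries (horizontal), on CD (left) and WD (right), with the line of equality. Points above the line, 26 of 29 on CD and 27 of 29 on WD, are genes that vary more between CD45hi libraries, and the named ones include Gla and Smpd1 on CD and Naglu and Smpd1 on WD.

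The 10 members with CACGTG in the promoter did not move in a single direction. On WD their log2 fold changes between cell types were above 0 for 6 and below 0 for 4, from -1.34 (*Mcoln1*) to 2.82 (*Gla*), with a median of 0.27. Those of the 17 without it were above 0 for 8 and below 0 for 9, with a median of -0.06. Of the 4 with the longer palindrome, *Gla* and *Cln3* were higher in CD45hi cells of WD-fed mice, while *Mcoln1* (FDR = 0.0576) and *Tmem55b* (FDR = 0.973) were not called.

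To set the members beside the rest of the lysosomal system, 81 further genes were taken from 5 lists: 18 other hydrolases and cofactors, 18 other membrane proteins, 18 subunits of the proton pump that acidifies lysosomes, 10 genes that sort enzymes to lysosomes and 17 regulators of lysosomal genes. All 81 passed the filter. Over 1.5-fold, 2 were higher and 1 lower in CD45hi cells on CD, where 3.39% of all genes were higher and 0.588% lower. On WD 3 were higher and 0 lower, where 4.01% and 1.17% of all genes were. By the test of any change 6 were higher and 6 lower on CD, where 5.95% and 2.08% of all genes were. On WD 5 were higher and 7 lower by this test, where 6.22% and 2.90% of all genes were. Their median log2 fold change was 0.03 on CD and 0.10 on WD, against 0.04 and 0.00 for all genes. By list, the test of any change on CD called 3 higher and 3 lower other hydrolases, 0 higher and 1 lower membrane protein, 2 higher and 1 lower pump subunits, 1 higher and 1 lower sorting gene, and 0 regulators. On WD it called 2 higher and 2 lower hydrolases, 0 and 1 membrane proteins, 1 and 1 pump subunits, 2 and 2 sorting genes, and 0 and 1 regulators. The counts by list are small and are to be read against the same shares of all genes.

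Among these, *Plbd1* and *Sorl1* were called over 1.5-fold on both diets. *Plbd1*, a phospholipase B-like protein of myeloid granules, was at 173, 199, 107 and 286 cpm in CD CD45hi against 6.24 to 16.1 cpm in CD CD45lo libraries, and at 285, 338 and 207 cpm against 2.42 to 16.0 cpm on WD. It was 18.7-fold higher on CD (FDR = 6.4e-05 over 1.5-fold) and 30.8-fold higher on WD (FDR = 1.9e-05), beside neutrophil and monocyte markers that were also higher in CD45hi libraries, and their part in it was not tested. *Sorl1*, a sorting receptor of endosomes and a risk gene of Alzheimer's disease, was at 237 to 504 cpm in CD CD45hi and 117 to 132 cpm in CD CD45lo libraries (2.88-fold higher, FDR = 0.00216), and at 245 to 381 and 106 to 160 cpm on WD (2.35-fold higher, FDR = 0.0288).

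The remaining genes named by list were not called over 1.5-fold on both diets. *Igf2r*, the large receptor for mannose 6-phosphate, was at 3.03 to 31.4 cpm in CD CD45hi and 0.123 to 2.49 cpm in CD CD45lo libraries (FDR = 0.105 over 1.5-fold), and at 3.83 to 83.2 and 0.445 to 1.81 cpm on WD (FDR = 0.0110). *Sort1* (sortilin) was at 151 to 271 cpm in CD CD45hi and 314 to 343 cpm in CD CD45lo libraries (log2 fold change -0.74 ± 0.18, FDR = 0.0151 for any change). On WD *Sort1* was at 146 to 208 cpm in CD45hi and 250 to 311 cpm in CD45lo libraries. *Atp6v0a2*, the subunit of the pump lowest on CD, had a log2 fold change of -0.78 ± 0.21 (FDR = 0.0307). On WD this subunit was at 57.1 to 88.2 cpm in CD45hi and 121 to 131 cpm in CD45lo libraries. *Atp6v0d2*, the subunit highest on CD, was at 58.1, 7.45, 0 and 0 cpm in CD CD45hi libraries with every CD45lo library at or under 3 counts on CD, so that 2 libraries carried its level. *Acp5* likewise was at 7.01, 3.31, 0 and 0.772 cpm in CD CD45hi libraries, with all CD45lo libraries at or under 3 counts. *Tpcn2* (log2 fold change 0.53 ± 0.71) and *Abcb9* (-1.35 ± 0.76), the highest and lowest of the other membrane proteins on CD, were not called. Of the regulators, *Tfec*, a relative of TFEB, was at 1.97, 15.8, 0 and 14.6 cpm in CD CD45hi and at most 0.941 cpm in CD CD45lo libraries (FDR = 0.285 over 1.5-fold). *Rptor*, a subunit of the mTORC1 kinase complex, had a log2 fold change of -0.41 ± 0.17 on CD (FDR = 0.179) and of -0.80 ± 0.19 on WD (FDR = 0.0110).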

How the data were processed

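Per the labels, poly(A)-selected libraries were sequenced from sorted cells, and the study's methods give 75 bp paired-end reads. The authors aligned reads and estimated expression with RSEM (1.2.12 in the submitters' processing notes, which also name bcl2fastq 2.18.0.12) on mm10, and deposited for each gene an expected count (estimated by the RSEM model, without scaling between libraries) and TPM. RSEM divides reads that match several genes, so expected counts need not be whole. RSEM was run with default parameters, which ignore strand, on libraries whose kit does not mark it. The annotation release is not given in the sources used here. Expected counts were rounded, the 14967 of 38924 genes reaching 1 cpm in 2 or more libraries were kept, and TMM factors were applied. All 15 libraries, grouped by sample labels, entered a single fit of 4 groups in edgeR 4.0.16 (R 4.3.3), with quasi-likelihood dispersions in their pre-version-4 form, glmTreat at 1.5-fold and glmQLFTest, at an FDR of 0.05 (Benjamini-Hochberg over all genes). The SE is the log2 fold change divided by the square root of F, and the CI is at 95%. TPM was used only for the order of genes, sums and the differences stated on that scale. Log2 cpm used a prior count of 2. Floors of 3 counts cover counting error only.

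The members and lists were chosen with earlier results of these data known, and so no list was tested. Members named with full values were those called by glmTreat on either diet, the 3 highest and 3 lowest log2 fold changes on each diet and the 3 lowest p for each effect of diet. Other genes named were those called by glmTreat on both diets and the highest and lowest of each list on CD. A gene that this rule names is not reported here. Further members were described after their values were seen. The study describes its data as given for each animal, while the labels do not say which CD45hi and CD45lo libraries came from the same mouse, so the libraries were treated as independent. No replicates held identical values. Gene positions and exonic overlaps come from GENCODE vM21 (GRCm38, the same assembly as mm10). Alternatives were DESeq2 1.42.0 and its size factors, no filter or a stricter filter, a fit of only those groups being compared, edgeR's newer quasi-likelihood form, replicate blocks, and leaving out each library or both CD45hi libraries that stood apart. The computation was tested on simulated counts.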

Additional observations from a re-analysis of the deposited data

Results flagged for a closer look

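Among 93 sets of 4 libraries checked (the 29 genes, their mean log2 cpm and their summed TPM in 3 groups), 7 held a library whose gap to the nearest other exceeded Dixon's 95% critical share of the range of the set; chance gives about 1 in 20 sets. *Fuca1* was at 162 cpm in CD CD45hi library 1 against 98.2 to 106 cpm in the other 3, and at 82.7 cpm in WD CD45lo library 1 against 105 to 107 cpm. *Lamp2* was at 706 cpm in CD CD45lo library 1 against 813 to 829 cpm. In CD CD45lo library 2, *Laptm5* was at 2501 cpm against 1949 to 1999 cpm and *Asah1* at 499 cpm against 609 to 623 cpm. *Lamp1* was at 693 cpm in WD CD45lo library 4 against 731 to 739 cpm, and *Smpd1* at 30.4 cpm in WD CD45lo library 3 against 17.1 to 19.1 cpm. The cause was not tested. Of these values, that of *Fuca1* in WD CD45lo library 1 lay in a comparison that was called, and its FDR without that library was 0.0921.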

How the results depend on the processing

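Of the counts of called members and the mean scores, 181 values under an alternative stayed close to the reported one and 30 moved, and the cause was not tested. The 181 include counts that could hardly move, such as those between diets in CD45lo cells, where 0 of all genes were called as reported. They are therefore not a measure of robustness. On CD, members with any change (0 as reported) were 1 under DESeq2 (12.5% of all genes), with at least 10 cpm in 3 libraries (12.5%), with the edgeR 4 form (11.2%) and without both libraries that stood apart (9.14%), each time *Tmem55b* lower. They were 0 to 2 leaving out 1 library. There was 1 without CD CD45hi library 4 (6.92%) or WD CD45hi library 1 (9.71%), and 2 without WD CD45hi library 2 (*Tmem55b* and *Tpp1*, 9.38%). These counts are to be read against the shares of all genes. On WD over 1.5-fold (1 as reported) there were 0 without both libraries that stood apart (7.03% of all genes) and 0 to 1 leaving out 1 library. There were 0 without WD CD45hi library 1 (5.12%) or any 1 WD CD45lo library (3.45% to 3.92%). On WD for any change (3 as reported) there were 7 under DESeq2 (15.8% of all genes), 5 with at least 10 cpm in 3 libraries (13.7%) and with the edgeR 4 form (11.9%), namely *Cln3*, *Fuca1*, *Gla*, *Psap* and *Mcoln1* in both, and 5 without both libraries that stood apart (13.3%), namely *Cd63*, *Fuca1*, *Gla*, *Lamp1* and *Manba*. There were 0 to 5 leaving out 1 library, with 0 without WD CD45lo library 1 (6.44%), 1 without WD CD45lo library 3 (6.66%), and 5 without CD CD45hi library 4 (11.8%) or WD CD45hi library 2 (9.91%). Between diets in CD45hi cells (0 as reported) DESeq2 called 1 (6.88% of all genes). The difference in mean log2 level between cell types was -0.150 on CD and 0.061 on WD. It was -0.566 and -0.430 on log2(TPM + 1), and -0.007 and 0.373 as a median over members. Leaving out 1 library gave -0.192 to -0.105 on CD, and on WD -0.022 (without WD CD45hi library 2) to 0.167 (without WD CD45hi library 1), so that the sign on WD rested on WD CD45hi library 2. For the 81 other lysosomal genes, any change gave 12 calls on each diet against 3 over 1.5-fold. Of all genes, 8.03% (CD) and 9.12% (WD) were called for any change and 3.98% and 5.18% over 1.5-fold. *Arsa* reversed on CD to -0.201 without CD CD45hi library 4, and ranged up to 0.679 without CD CD45hi library 1.

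With the replicate block by the numbers in the sample titles, the WD calls fell to 0 over 1.5-fold and 0 for any change, and likewise with the numbers that begin the file names. Calls among all genes on WD fell as well. Over 1.5-fold they were 2.66% with the titles and 2.36% with the file names, against 5.18% as reported. For any change they were 4.8% and 4.26%, against 9.12%. With these 2 blocks *Gla* had log2 fold changes on WD of 2.632 (FDR = 0.132) and 2.514 (FDR = 0.131), at a median of all genes shifted to -0.256 and -0.249. The deviations of same-numbered libraries correlated at -0.022 to 0.069 across genes. These correlations cannot decide whether the numbers pair the samples. The fractions differ in their mixture of cells, and no libraries known to share a mouse were available for comparison. The scarcer genes were less precise. The median SE between cell types on CD was 0.147 for members with a TPM of 100 or more and 0.415 for the others, which includes the spread between libraries, and the part of depth in it was not tested.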
